A study of Homo sapiens with 6 samples.

Results

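The mitosis and G2/M genes are 40 genes that act when a cell enters mitosis, separates its chromosomes and divides. Their members were named as a list, and all 40 had a row among the 20745 genes of the deposited table. RNA came from AB 8/13, a conditionally immortalized human podocyte line that divides at 33 °C and differentiates at 37 °C, where all cultures had been kept for 7 to 10 days. There were 3 vehicle cultures and 3 cultures treated for 24 h with 1 µM levamisole, a drug used to spare steroids in nephrotic syndrome. The labels place both groups in serum-free medium, while the study's methods place the vehicle in medium with serum, and this was left unresolved. The labels of the levamisole cultures also carry the word control, and they were grouped by their treatment field. The line is 1 immortalized line, and the cultures of each group came from different passages of it.

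Per gene, the value used was the base mean, which is the authors' mean over libraries of the read count after scaling for depth. It pools vehicle and levamisole cultures, has no spread, and its number of libraries is not given in the sources used here. Levamisole was therefore not compared with vehicle, and no difference between genes could be set against replicate error. The base means sum to 6345656, the mean normalized depth of a library, and 22 mitochondrially encoded genes took 34.8% of that sum. The libraries read transcripts near their 3′ end, so a count need not grow with transcript length. Ranks are by base mean. Values per kilobase of the canonical transcript are given beside it as a second scale, including where they change the order named. Where counts do not grow with length, this division lowers long transcripts and raises short ones, so it is not a correction of the base mean. Among the members, MKI67 (12716 bases) moved from place 12 by base mean to 34 per kilobase, and UBE2C (777 bases) from 9 to 1.

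Entry into mitosis is driven by CDK1 bound to a B-type cyclin, and Polo and Aurora kinases then build the spindle. The spindle checkpoint holds the APC/C, a ubiquitin ligase that degrades cyclin B, until every kinetochore is attached. Many of these genes are silent in resting cells and peak in G2 and mitosis, through the DREAM and MYB-MuvB complexes, which bind promoters at an element known as the cell cycle genes homology region (CHR), and through NF-Y, which binds the CCAAT box. Mature podocytes in the kidney are post-mitotic.

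The promoters of 8 members are shown because they carry the element pattern most of the list shares, or, for CCNA2 and AURKB, lack part of it. Each is the 150 bases just before a start of the gene in RefSeq (GRCh38.p14), 5′ to 3′ on the gene's strand. The AURKB stretch lies inside that gene's span (8204733 to 8210600, minus strand), and 2 promoter windows are listed for AURKB. What the stretch lacks is therefore a property of the window used and need not hold for the gene's promoter. The KIF11 and KIF20A stretches also lie inside the spans of their genes. Capitals mark the CHR core, TTTGAA or TTTAAA, and the CCAAT box, each on either strand, so that TTCAAA and ATTGG are the same elements read from the other strand. In MKI67 the last CHR core and the last CCAAT box share bases. CCNB1 and CCNB2 encode the B-type cyclins, CKS2 a small CDK-binding subunit, KIF11 the kinesin that pushes spindle poles apart, KIF20A a kinesin of cytokinesis, MKI67 the Ki-67 protein that coats mitotic chromosomes, CCNA2 cyclin A2 and AURKB Aurora B.
CCNB1, chr5:69167000-69167149, plus strand: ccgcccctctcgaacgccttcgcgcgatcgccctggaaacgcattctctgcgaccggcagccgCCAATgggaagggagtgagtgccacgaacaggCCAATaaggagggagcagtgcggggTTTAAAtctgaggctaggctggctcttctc
CCNB2, chr15:59104996-59105145, plus strand: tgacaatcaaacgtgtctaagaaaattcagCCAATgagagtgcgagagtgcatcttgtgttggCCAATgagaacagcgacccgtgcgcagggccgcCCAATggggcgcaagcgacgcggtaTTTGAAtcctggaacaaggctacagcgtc
CKS2, chr9:89311045-89311194, plus strand: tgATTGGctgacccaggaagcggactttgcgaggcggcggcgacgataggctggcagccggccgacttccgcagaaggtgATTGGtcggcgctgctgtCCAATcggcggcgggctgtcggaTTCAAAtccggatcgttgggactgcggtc
KIF11, chr10:92592980-92593129, plus strand: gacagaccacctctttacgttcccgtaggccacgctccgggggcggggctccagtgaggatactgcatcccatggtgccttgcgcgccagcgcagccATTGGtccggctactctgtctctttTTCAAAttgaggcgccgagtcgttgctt
KIF20A, chr5:138178962-138179111, plus strand: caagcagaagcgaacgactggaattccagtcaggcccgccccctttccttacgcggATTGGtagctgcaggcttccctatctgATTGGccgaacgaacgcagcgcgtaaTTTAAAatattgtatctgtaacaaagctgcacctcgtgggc
MKI67, chr10:128126424-128126573, minus strand: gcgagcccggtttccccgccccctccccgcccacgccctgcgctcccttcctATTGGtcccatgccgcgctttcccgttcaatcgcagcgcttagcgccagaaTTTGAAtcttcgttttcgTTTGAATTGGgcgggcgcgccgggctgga
CCNA2, chr4:121823884-121824033, minus strand: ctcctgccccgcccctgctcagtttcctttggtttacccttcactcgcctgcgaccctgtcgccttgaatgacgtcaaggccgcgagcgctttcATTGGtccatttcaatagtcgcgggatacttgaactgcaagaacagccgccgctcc
AURKB, chr17:8210250-8210399, minus strand: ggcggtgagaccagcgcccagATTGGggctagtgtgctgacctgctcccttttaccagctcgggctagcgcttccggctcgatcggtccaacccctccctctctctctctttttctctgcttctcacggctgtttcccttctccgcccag

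A RefSeq promoter window, running from 250 bases before the start to 50 after it, was at hand for 32 of the 40 members, the other 8 being AURKA, BIRC5, BUB3, FOXM1, RACGAP1, TPX2, TTK and UBE2C. A CHR core was found in 28 of the 32 windows (87.5%), against 23.8% of all 27305 windows and 14.3% of the 9520 windows of protein-coding genes whose base mean was 5 or more. The 4 members without it were AURKB, BUB1, CCNA2 and CDC25B. With any listed window of a gene counted, 29 of the 32 members had a core, against 27.9% of all genes with a window. Of the 4, only AURKB (2 windows) and CDC25B (4 windows) had further windows. With the related letters TTCGAA and TTTCAA counted too, 31 of the 32 windows used had an element (30.1% of all windows). The exception was the AURKB window, which lies inside that gene's span. TTTGAA was the more frequent core, in 24 windows (15.1% of all windows), and TTTAAA was in 11 (12.0%). TTTAAA reads the same on both strands, whereas TTTGAA was also searched as TTCAAA, which favours TTTGAA. On the gene's strand alone, TTTGAA was in 19 of the members' windows (8.31% of all windows) and TTTAAA in 11 (12.0%). Other letters, such as the cttgaa in the CCNA2 stretch above, were not searched. An absence therefore holds only for the letters named and does not show that a gene lacks a CHR. A match is a description of the letters and not a bound site.

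The CCAAT box was found in 25 of the 32 members (78.1%), against 35.7% of all windows. The 7 members without it were ANLN, BUB1B, CENPE, KIF2C, NDC80, NUF2 and SMC4, and each of these had a CHR core. Both elements stood in 21 windows (65.6%), against 9.30% of all windows. The members with a CHR core had base means from 11.8 to 569.7 (median 184), and the 4 without had 38.8 to 587 (median 141), so the ranges overlapped over most of their width.

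In the CCNB1, CCNB2 and KIF11 sequences above, a CCAAT box begins 25 bases before the CHR core. The distance was also 25 bases in DLGAP5, 24 in CKS1B and NUSAP1, 23 in CKS2, 21 in ASPM, 26 in KIF20A, 28 in CENPF, 33 in CDK1 and PRC1 and 35 in CDC20. In CENPF both elements of this pair, and in DLGAP5 its CHR core, lie after the start. A range of 20 to 35 bases was set after these distances were seen. A CCAAT box at such a distance before a CHR core was present in 13 of the 32 members (40.6%). The same was found in 0.960% of all windows and 0.746% of those of protein-coding genes with a base mean of 5 or more. Among windows that hold both elements in any arrangement, the share was 61.9% for the members and 10.3% for all genes. For the protein-coding genes with a base mean of 5 or more, that share was 12.5%.

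The CHR core was also frequent in mitosis genes outside the list, and in genes of S phase its share was near that of expressed protein-coding genes. Of 48 windows from a list of other mitosis genes, 34 had a CHR core (70.8%) and 12 had the spaced pair (25.0%). Of 30 windows from DNA replication and G1/S genes, 4 had a CHR core (13.3%) and 0 had the spaced pair, whereas 19 had a CCAAT box (63.3%). No test was made of these differences, because members and lists were chosen by name.

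**Figure D1:**
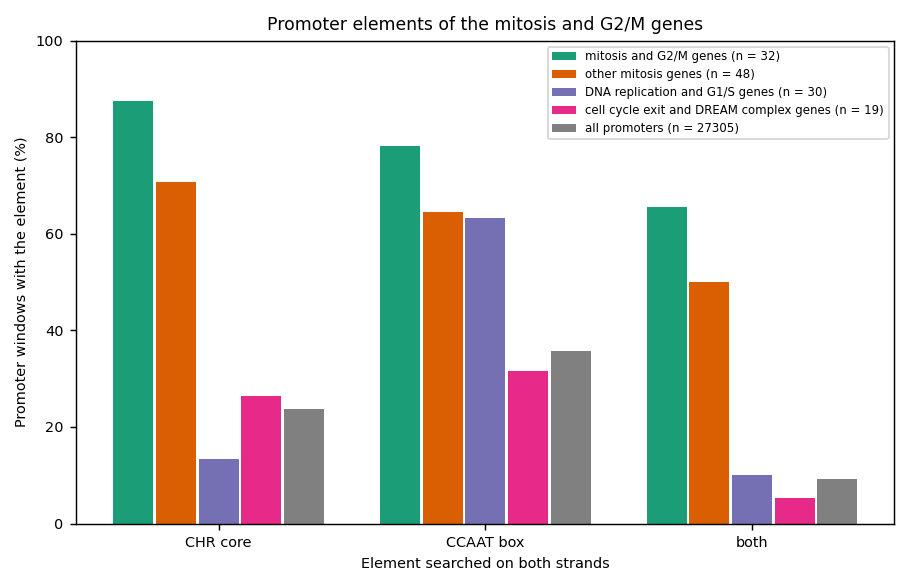
Share of promoter windows (vertical axis, percent, from 0) with a CHR core, a CCAAT box or both, for the mitosis and G2/M genes, 3 other lists and all promoters, with the number of windows in the key. The CHR core bar of the members, at 87.5%, stands far above that of the DNA replication and G1/S genes, at 13.3%, while the CCAAT bars of these lists, at 78.1% and 63.3%, lie closer together.

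All 40 mitosis and G2/M genes were measured, with base means from 11.8 for PRC1 to 953 for BUB3. Their median was 185, against 21.8 for all genes, and 80.2% of genes had a base mean below it. A base mean of at least 50 was reached by 37 members (92.5%), against 39.9% of all genes, and 39 were above the median of all genes, PRC1 being the exception. Of the members, 25 lay above the upper quartile of all genes, 131. Together the members made up 0.156% of the summed base means, and the 5 highest, BUB3, RACGAP1, AURKB, CENPF and CCNB1, made up 35.3% of the members' own sum. RNA from a small fraction of dividing cells and low RNA in every cell cannot be told apart in these bulk cultures.

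**Figure D2:**
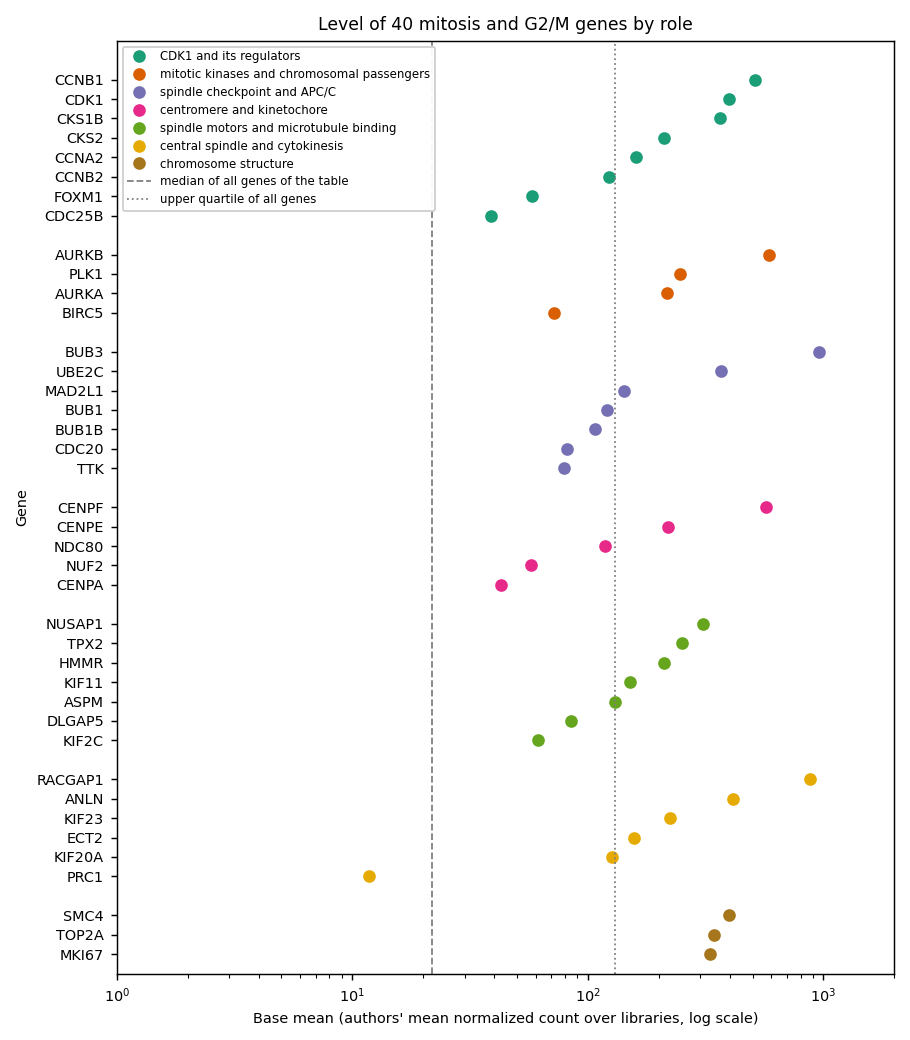
Base mean (horizontal axis, log scale, authors' mean normalized count over libraries) of the 40 mitosis and G2/M genes, 1 point per gene, coloured by role; the dashed line is the median of all genes (21.8) and the dotted line their upper quartile (131). Of the 40 points 39 lie to the right of the dashed line, and PRC1 at 11.8 lies to its left; no error bars are drawn because the base mean has no spread.

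Among the 8 genes grouped as CDK1 and its regulators, CCNB1 had the highest base mean and CKS1B the highest value per kilobase (465, against 253 for CCNB1). CCNB1, cyclin B1 (ENSG00000134057, chromosome 5 of GRCh38, 69167135 to 69178245) had a base mean of 514 and CDK1, the kinase itself (ENSG00000170312, chromosome 10, 60778331 to 60794852), one of 398. The second B-type cyclin, CCNB2, was at 122, so that the ratio of CCNB1 to CCNB2 was 4.20 on the base mean scale and 3.08 per kilobase. CCNA2, which acts from S phase into early mitosis, was at 160.5. Both CDK-binding subunits were present, CKS1B at 362 and CKS2 at 211. The lowest of the 8 were FOXM1, a transcription factor of G2/M genes, at 57.8, and CDC25B, a phosphatase that activates CDK1, at 38.8.

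AURKB, the kinase of the chromosomal passenger complex that corrects faulty attachments, had a base mean of 587 (ENSG00000178999, chromosome 17, 8204733 to 8210600). Its partners in that complex were lower on both scales. BIRC5 (survivin) was at 71.9, 8.16 times lower by base mean and 16.9 times lower per kilobase. CDCA8 (borealin), outside the list, was at 133, and INCENP, the scaffold of the complex, at 4.42, the lowest of 55 other mitosis genes. PLK1, which acts at centrosomes and kinetochores, was at 245, and AURKA, the centrosomal Aurora kinase, at 217. TPX2, which activates AURKA on microtubules, was at 250.3, above AURKA by base mean and below it per kilobase.

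BUB3, a WD-repeat protein of the checkpoint, had the highest base mean of all members, 953 (ENSG00000154473, chromosome 10, 123154402 to 123170467), and was at place 9 per kilobase (124). Its partners BUB1 and BUB1B had 121 and 107, a ratio of BUB3 to BUB1 of 7.88 by base mean and 3.85 per kilobase. MAD2L1, which binds and holds CDC20, was at 142, and TTK, the kinase at the top of the checkpoint, at 79.2. UBE2C, the ubiquitin-conjugating enzyme of the APC/C, was at 369 and had the highest value per kilobase of the 40 genes, 475. CDC20, the activator of the APC/C in mitosis, was at 81.4, lower than UBE2C by a factor of 4.54 on the base mean scale and 9.63 per kilobase.

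At the centromere, CENPF, a large kinetochore protein, had a base mean of 569.7 and the kinesin CENPE one of 218. NDC80 and NUF2 form a dimer that grips microtubules, and they were at 118 and 57.3, a ratio of 2.07 by base mean and 1.91 per kilobase. CENPA, the histone variant that marks the centromere, was at 42.9. Per kilobase NDC80 (55.7) lay beside CENPF (55.4) and above CENPE (25.6), unlike their base means; the canonical transcripts are 2126, 10290 and 8541 bases long.

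Spindle genes other than the kinases had base means from 61.1 to 307. NUSAP1, which bundles microtubules, was at 307, and HMMR, which helps to hold spindle poles, at 210.4. KIF11 was at 151 and ASPM, the pole protein linked to brain size, at 131. DLGAP5, which stabilizes kinetochore fibres, was at 84.5, and KIF2C, a kinesin that takes microtubules apart, at 61.1. All 7 were above the median of all genes.

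For cytokinesis, RACGAP1 was at place 2 of the 40 members by base mean, 879 (ENSG00000161800, chromosome 12, 49976923 to 50033136), and at place 5 per kilobase (283). It pairs with the kinesin KIF23 in centralspindlin, and KIF23 was at 224, lower by a factor of 3.93 on the base mean scale and 4.63 per kilobase. ANLN, the scaffold of the contractile ring, was at 415 and ECT2, the exchange factor that activates RhoA there, at 157. KIF20A was at 126.

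PRC1, which crosslinks the central spindle, stood apart from the other members. Its base mean of 11.8 (ENSG00000198901, chromosome 15, 90966040 to 90995629) was below that of CDC25B, the next member, at 38.8, and it was also the lowest per kilobase (3.84). In GENCODE 44, another same-strand gene (ENSG00000284946, chromosome 15, 90966190 to 91022566) has exons over 70.0% of the last 500 exonic bases of PRC1. The covering gene has no base mean of its own, and whether the authors' annotation held it is not known. If it did, reads on exons of both genes would be left uncounted by the authors' counting tool in its default mode. The PRC1 value is therefore uncertain, and the part of the overlap in it was not tested. The same holds for NUSAP1 (90.0% covered) and BUB1B (18.8%), whose base means were nevertheless 307 and 107. Covering genes were counted only where their identifiers were no newer than the newest among the authors' genes. Under that limit the other 37 members had no such overlap, and 3.44% of 14455 protein-coding genes had any.

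The genes of chromosome structure were close to each other by base mean. SMC4, a condensin subunit that compacts chromosomes, was at 397, TOP2A, the topoisomerase that untangles them, at 342, and MKI67 at 328. The spread widened per kilobase, to 77.5, 60.0 and 25.8, with the order unchanged. SMC2, the condensin partner of SMC4, was at 377, a ratio of SMC4 to SMC2 of 1.05 by base mean, with SMC4 (77.5) also above SMC2 (63.7) per kilobase.

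Beyond the 40 genes, the 55 other mitosis genes had a median base mean of 87.7, with WEE1, the kinase that restrains CDK1, highest at 1489, and 39 of them reached 50. Per kilobase PTTG1, the securin that guards cohesion, stood above WEE1 (582 against 415). DNA replication and G1/S genes had a median of 194. Per kilobase the medians were 55.5 for the members, 27.6 for the other mitosis genes and 80.1 for the replication genes, the same order.

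**Figure D3:**
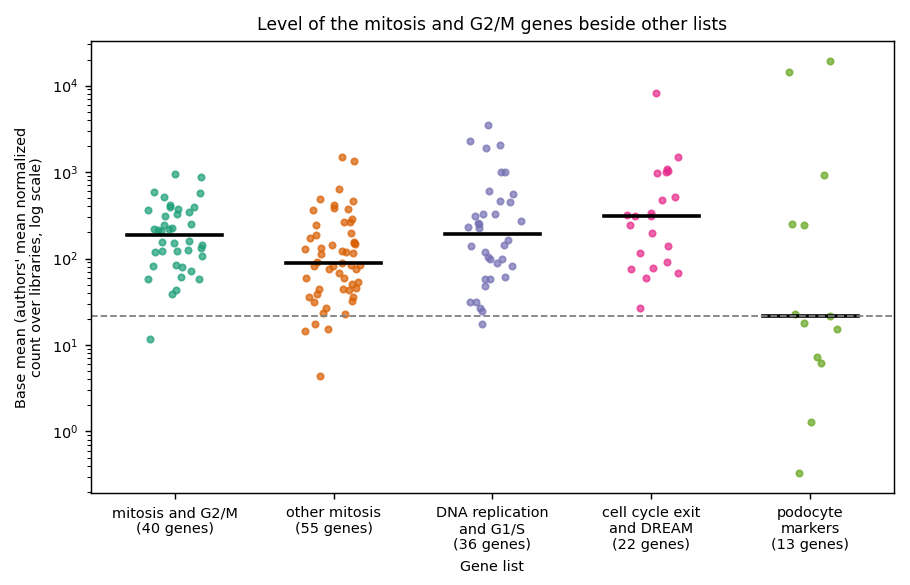
Base mean (vertical axis, log scale, authors' mean normalized count over libraries) of the mitosis and G2/M genes and of 4 other lists; each point is a gene, the black bar is the list's median and the dashed line the median of all genes (21.8). The members' median (185) lies close to that of the DNA replication and G1/S genes (194), and the podocyte markers run from 0.333 to 19062.

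The podocyte label was checked against 13 markers with a value. The structural genes ACTN4 and CD2AP were at 14320.5 and 929, and VIM was at 19062. The more restricted markers were low: SYNPO was at 22.8, PODXL at 15.3, WT1 at 6.21 and PTPRO at 0.333. Markers of endothelium (3 genes, at most 0.690) and leukocytes (3 genes, at most 2.40) were near 0, as were CUBN, CDH1 and SLC12A3 of the tubular list (0.514 to 1.219), whose AQP1 and EPCAM were at 243 and 76.3. Of the mesangial list, ACTA2 was at 1021 and PDGFRB at 4.14, and RGS5 had rows at 169 and 3.997.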

How the data were processed

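RNA of 3 vehicle and 3 levamisole cultures was sequenced by CEL-seq, which reads transcript ends. The authors trimmed reads with Trim Galore 0.4.5, mapped them to GRCh38 with STAR 2.7.5a, counted them with HTSeq-count 0.11.0 and ran DESeq2 1.22.0. The base mean is a signal that the authors deposited, the mean over libraries of counts divided by size factors. The table's other columns hold the authors' own comparison of levamisole with vehicle (log2 fold change, standard error, Wald statistic, p-value and adjusted p-value). They were not used, so no test of treatment was made, and 0 columns of values per culture were at hand. Depth per library is unknown.

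Members, lists and motifs were chosen with earlier results of these data known. All 40 members are named by role, with the highest and lowest genes of the other lists, and partners of members in complexes, which were chosen after their values were seen. Ranks, medians, shares and ratios were computed in Python 3.11.15 with pandas 2.3.3. Transcript lengths and overlaps come from GENCODE 44, which matched 20599 of 20745 identifiers. The annotation differs from that of the authors on the same assembly. Promoters are RefSeq windows matched by symbol. For genes with several, the window nearest the canonical start was used. The motif search was tested on simulated data. Protein motifs were planned and not run.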

Additional observations from a re-analysis of the deposited data

How the results depend on the processing

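No paired analysis was possible because each gene has only a mean over libraries, and so left-out replicates and refits were not run. The share of genes below the members' median base mean, 80.2% over all genes, was 69.2% among genes at a base mean of 5 or more, 65.8% at a minimum of 10, 72.0% among protein-coding genes and 79.5% per kilobase. Fewer genes are ranked under the minimums. The count of 37 members at a base mean of at least 50 became 40 at 10 and 30 at 100. The members' share of the summed base means was 0.156%, and 0.240% without mitochondrially encoded genes, because the sum is smaller. A CHR core was found in 62.5% of the members' windows in the last 100 bases before the start, where 8.21% of all windows had it, and a CCAAT box in 40.6% on the forward strand alone, where 20.7% of all windows had it. The other 6 motif settings, including any listed window of a gene, which was chosen after the data were seen, stayed within the exact 95% binomial interval of the share.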

Other observations

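Genes that hold or release the cell cycle were well represented beside the mitosis and G2/M genes. Of 23 listed genes of cell cycle exit and the DREAM complex, 22 had a value, and their median base mean was 309.9. CDKN1A, the p21 inhibitor of cyclin-dependent kinases, had a base mean of 8222, above 99.8% of all genes, and CDKN1C (p57), which marks mature podocytes, had 1019. The retinoblastoma family members RB1, RBL2 and RBL1 were at 338, 117 and 90.4. MYBL2, which turns the MuvB core into an activator of mitosis genes, was at 197, and the lowest base mean of the list was that of E2F5, 26.9. Of the 19 windows for this list, 5 had a CHR core (26.3%) and 6 a CCAAT box (31.6%).

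Several S phase genes had base means above that of BUB3, the highest of the 40 members. TYMS, which makes thymidylate, was at 3525 and PCNA, the sliding clamp of DNA polymerase, at 2276, while ORC1 of the origin recognition complex was lowest at 17.3.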
